A study of Mus musculus with 235 samples.

Results

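Complement and coagulation proteins of liver form a group of plasma proteins of shared origin, described here by 39 genes that were listed by symbol. Each gene was read from the probe set that carries its symbol and no other, and from the brightest such probe set where there were several, which gave 37 of the 39 genes among the 18146 genes measured. The expression of C3 and Cpb2 was not analysed here. The values came from left liver lobes of female mice of 31 inbred strains, 8 to 10 weeks old at the start. Each strain was given sterile water as vehicle or isoniazid at 100 mg/kg, by gavage once daily for 3 days, and livers were taken 24 hours after the last dose. There was 1 array per animal, 124 from vehicle animals (4 in every strain) and 111 from isoniazid animals. The 111 comprised 4 animals in each of 22 strains, 3 in 5 strains and 2 in 4 strains, since 13 isoniazid animals died early in 9 strains. All strains carried their own inbred genomes with no transgene named in the labels, and 13 strains were coded by the submitters as developing steatosis under isoniazid and 18 as not.

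Complement is a cascade of plasma proteases that is started by antibody (the classical route, with C2), by sugar-binding lectins (Mbl1 and Mbl2 with the proteases Masp1 and Masp2) or on surfaces (the alternative route, with Cfb and properdin, Cfp). The routes all lead through the cleavage of C3 to that of C5, which is encoded in mouse by Hc. C5b then builds a pore in the target membrane with other proteins, among them C6, C8 and C9. Coagulation is a second protease cascade, in which the contact factors and factors VII to XI lead to thrombin (F2), and thrombin turns fibrinogen into fibrin. Hepatocytes make most of these proteins, and several of them are acute phase proteins that liver makes in larger amounts during inflammation.

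All values are log2 expression levels of 1 probe set per gene, so a difference of 1 unit is a factor of 2 in signal. Levels of different genes are not set against each other, because each probe set has its own brightness. The 8 hepatocyte markers, among them Alb, Ttr and Apoa1, had a mean level of 12.8 to 13.9 in the vehicle groups, as liver should show. Array medians lay between 3.96 and 4.21. On 21 arrays, 11 of vehicle and 10 of isoniazid animals, the log2 values had a narrower spread than on the other 214. Without these arrays 22 members changed with isoniazid in place of 20, 37 differed between strains in place of 36, and 19 showed an effect of isoniazid that differed between strains, as with them.

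Across the 31 strains, with the strain as replicate, 20 of the 37 genes changed with isoniazid by limma at an adjusted p under 0.05, 19 lower and 1 higher. Over all 18146 genes 20.0% were called, 9.85% lower and 10.2% higher. The median change of the 37 genes was -0.08 log2 units, and that of all genes was 0.00. With the scan day as a term 22 members were called, all 20 among them. The changes were small. The largest fall, that of Mbl2, was 1.29-fold, and 0 of the 37 genes passed when a change of at least 1.5-fold was also asked for, which 0.298% of all genes passed. By role, 3 of 5 genes of the classical and lectin routes fell and 1 rose, both genes of the alternative route fell, 2 of 6 genes of the terminal pathway fell, and 2 of 3 complement regulators fell. Of the coagulation genes, 2 of 8 clotting factors, 2 of 3 contact factors, 1 of 3 fibrinogen chains, 3 of 4 anticoagulants and 1 of 2 genes of fibrinolysis fell, and Vtn fell too.

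**Figure D1:**
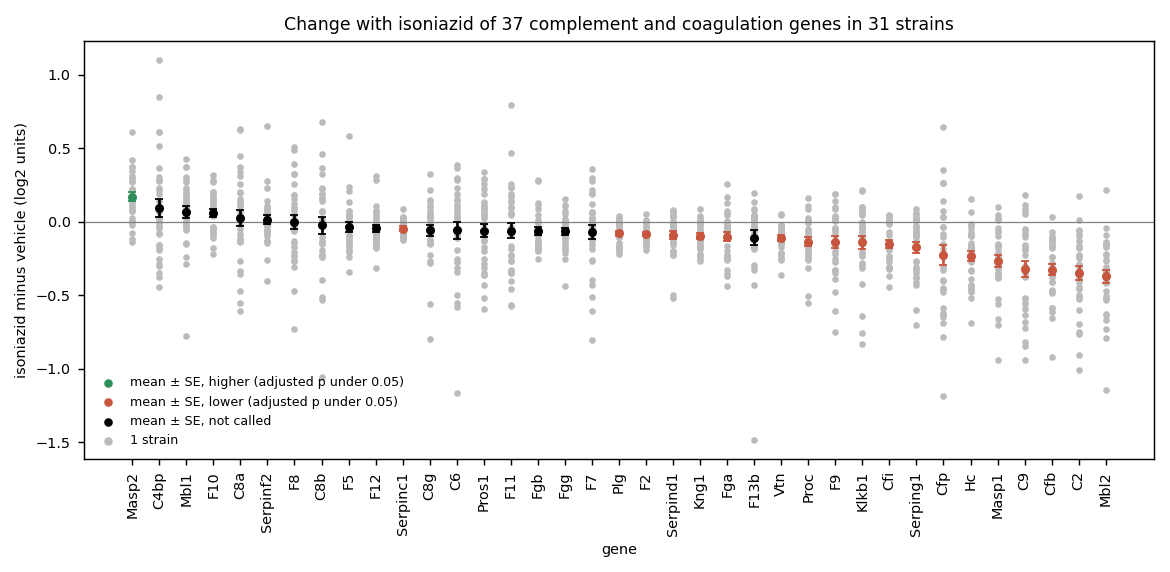
Change with isoniazid (isoniazid minus vehicle, log2 units, vertical axis) of each of the 37 genes (horizontal axis, from the largest mean rise to the largest mean fall). Grey points are the 31 strains, and coloured or black points with bars are the mean and SE over strains. Masp2 is the 1 called gene above 0, and Mbl2, C2 and Cfb lie farthest below it, while single strains reach from -1.48 (F13b) to 1.10 (C4bp), both in PWK/PhJ.

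Mbl2, a mannose-binding lectin that starts the lectin route, had vehicle levels of 10.40 in the lowest strain (C58/J), 11.38 in the median strain and 11.76 in the highest (AKR/J). With isoniazid the lowest strain was C57BR/cdJ at 9.71, the median strain had 11.06 and the highest was RIIIS/J at 11.79, so the ranges of the strains overlapped widely. C58/J went to 10.06 and AKR/J to 11.12. The mean change was -0.37 (SE 0.05, adjusted p = 1.70e-07, limma). Mbl2 was lower in 30 of 31 strains, with RIIIS/J as the exception at 0.22. Vehicle animal 2 of RIIIS/J had the lowest Mbl2 of its group, and without it the change in RIIIS/J was 0.028. Neither value passed the test within the strain. The deepest fall was in C57BR/cdJ, where the 4 vehicle animals had 10.72, 10.80, 10.80 and 11.10 and the 4 isoniazid animals 9.41, 9.51, 9.67 and 10.25. The animals of C57BR/cdJ did not overlap. Mbl1, the second mannose-binding lectin, did not pass the test (mean change 0.07, adjusted p = 0.274), with values from -0.78 in PWK/PhJ to 0.42 in BUB/BnJ. Its vehicle level was lowest in LP/J at 9.23, below a median strain at 10.48.

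C2, the protease that forms the C3 convertase of the classical and lectin routes, had vehicle levels of 7.83 in PL/J, 8.93 in the median strain and 9.60 in RIIIS/J. It was lower with isoniazid in 29 of 31 strains, by -0.35 on average (SE 0.05, adjusted p = 9.51e-07). All 3 probe sets of C2 gave a like mean change, from -0.34 to -0.36, and PL/J was the lowest strain on each. The PL/J vehicle animals had 7.73, 7.83, 7.86 and 7.90. Cfb, which does in the alternative route what C2 does in the classical one, had vehicle levels from 9.92 in PWK/PhJ over a median of 10.95 to 11.45 in RIIIS/J. Cfb was lower in 30 of 31 strains (mean change -0.33, SE 0.04, adjusted p = 6.08e-08), and MA/MyJ, with 2 isoniazid animals at 10.98 and 11.27 against vehicle animals from 11.03 to 11.13, was the exception. In NZW/LacJ, where Cfb fell most, the vehicle animals had 10.87, 10.91, 10.96 and 11.05 and the isoniazid animals 9.86, 9.88, 10.16 and 10.21. Within each of the 10 scan days the mean change of Cfb and of C2 was negative, while that of Mbl2 was negative in 9. The days held from 1 to 6 strains with both treatments, so they do not weigh alike. On the day with only 1 such strain, RIIIS/J, there was 1 animal of each treatment, and the vehicle animal was animal 2. The change there was 1.02 for Mbl2 and -0.62 for Cfb.

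The 2 lectin-route proteases moved in opposite directions. Masp1 had vehicle strain means from 8.45 in C58/J to 9.95 in RIIIS/J and fell by 0.27 on the log2 scale (SE 0.04, adjusted p = 7.23e-06, lower in 27 strains). Of its 5 probe sets 4 had a lower mean with isoniazid, from -0.10 to -0.27, and the dimmest had 0.05. In vehicle livers RIIIS/J was the highest strain on the probe set used but the lowest on another, at -0.60 from the median strain. Masp2 had vehicle levels from 8.39 in C57BR/cdJ over a median of 9.10 to 9.61 in C57BLKS/J, and it rose by 0.17 (SE 0.03, adjusted p = 8.82e-05, higher in 26 strains). The largest change of Masp2 was in AKR/J, from vehicle animals at 8.41, 8.73, 8.86 and 9.03 to isoniazid animals at 9.16, 9.36, 9.43 and 9.55. Its second probe set was also higher on average, by 0.09. Cfp, properdin, which stabilises the alternative convertase and is made largely by myeloid cells, fell by 0.22 (SE 0.07, adjusted p = 0.0124), with strains from -1.19 in C57BLKS/J to 0.65 in SJL/J. Its adjusted p was 0.202 without replicate 1. Of 9 macrophage markers 6 fell with isoniazid and 0 rose, where 9.85% of all genes fell and 10.2% rose. The mean level of these markers lay between 6.14 and 8.45 in the vehicle groups. In the isoniazid groups it lay between 5.76 and 8.80. Their part in the changes described here was not tested, and in bulk liver RNA fewer cells of a type and less RNA per cell cannot be told apart.

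Among the regulators, Serping1, the C1 inhibitor that also blocks the contact factors, fell by 0.17 (SE 0.04, adjusted p = 5.53e-04) and Cfi, the protease that inactivates C3b, by 0.15 (SE 0.03, adjusted p = 5.27e-05). C4bp, a cofactor of Cfi, did not pass over strains (mean change 0.09, adjusted p = 0.348), since 16 strains were higher and 15 lower.

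Vehicle livers of the strains differed in 36 of the 37 genes by limma's F test, while 53.4% of all genes were called. The gene not called was Fgg (adjusted p = 0.0747). The 5 largest F values were those of Hc (117), F12 (35.5), C9 (28.2), C6 (23.4) and F9 (23.0). To find strains that may lack a transcript, strain means at least 2 log2 units under the median strain were listed. This gave 14 pairs of a gene and a strain, 11 for Hc, 2 for C9 and 1 for Klkb1. The rule measures a drop from the median strain and not absence. The means of these pairs lay between 8.16 and 9.36, and signal over background was not measured. Over all genes 0.113% of such pairs lay that low, and 1.59% of genes had at least 1 such strain. Array probes were designed on a reference genome, and whether a sequence variant under a probe lowers a strain's signal was not tested.

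**Figure D2:**
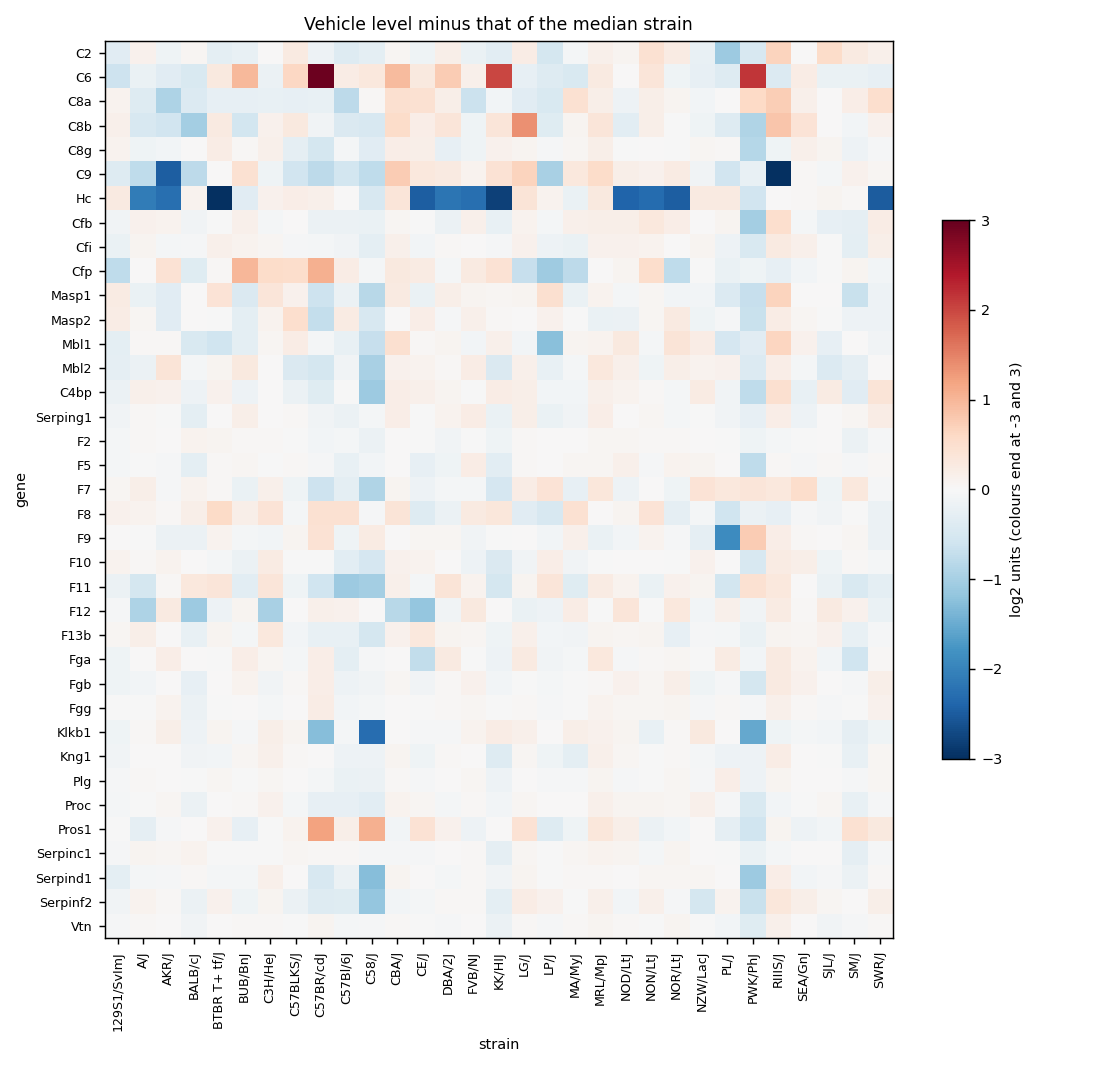
Vehicle level of each of the 37 genes (rows) in each of 31 strains (columns), as the difference from the median strain in log2 units (blue lower, red higher, colours ending at -3 and 3). The row of Hc holds 11 dark blue strains, C9 is dark blue in RIIIS/J and AKR/J, Klkb1 in C58/J, and C6 is dark red in C57BR/cdJ, PWK/PhJ and KK/HIJ.

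Hc separated the strains into 2 sets. In 11 strains the vehicle mean lay between 8.16 and 9.36 (median 9.05), and in the other 20 between 10.88 and 11.84 (median 11.57), with no strain in the gap of 1.52 log2 units, which is 2.87-fold. From low to high, the 11 strains were BTBR T+ tf/J at 8.16, KK/HIJ at 8.67, SWR/J at 8.98, NOR/LtJ at 8.99, CE/J at 9.0, NOD/LtJ at 9.05, NON/LtJ at 9.17, FVB/NJ at 9.21, AKR/J at 9.21, DBA/2J at 9.27 and A/J at 9.36. BTBR T+ tf/J had the lowest mean of the low set, 9.88-fold under the median strain, with vehicle animals from 8.00 to 8.35. The lowest SWR/J vehicle animal, at 8.17, lay within that range. Just outside the low set were PWK/PhJ at 10.88 and C58/J. No animal crossed between the sets. The 44 vehicle animals of the low set reached at most 9.84, and the 80 of the other set at least 10.80. Under isoniazid the 41 low animals reached at most 9.70, and the 70 others at least 10.01, in PWK/PhJ.

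A/J, AKR/J, DBA/2J, FVB/NJ, NOD/LtJ and SWR/J are known to lack C5 in plasma because of a small deletion in an exon of Hc. All 6 were in the low set. Their mean vehicle level was 9.18 ± 0.14 (SD, n = 6 strains), against 10.97 ± 1.15 in the other 25 strains. The difference of -1.79 had p = 0.000709 in a two-sided exact permutation test over 736281 arrangements of the strains. The 25 strains include the other 5 low strains. The array reads RNA only, so the protein of these 5 strains was not measured here. Hc fell with isoniazid over the 31 strains by 0.23 (SE 0.03, adjusted p = 6.24e-06, lower in 29). The change was -0.17 ± 0.13 (SD) in the 11 low strains, 10 of them lower, and -0.26 ± 0.22 in the other 20, 19 of them lower. A difference of the effect between strains was not detected (F = 1.30, adjusted p = 0.328). Of the 11 low strains 6 were steatosis strains and 5 were not.

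**Figure D3:**
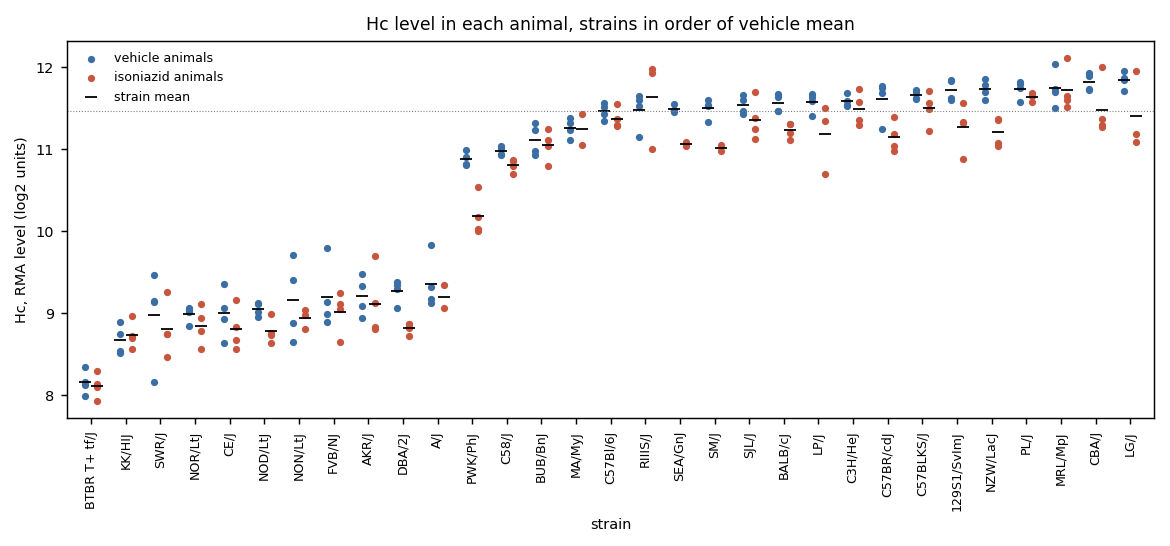
Hc level (RMA log2 units, vertical axis) in each vehicle (blue) and isoniazid (red) animal, with strains ordered along the horizontal axis by their vehicle mean, black bars for strain means and a dotted line at the median strain. The first 11 strains, BTBR T+ tf/J to A/J, lie at or under 9.84, and the other 20 at or above 10.01.

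The other proteins of the membrane pore varied between strains in their own ways. C9, which lines the pore, had vehicle strain means from 8.26 in RIIIS/J over a median of 11.49 to 12.25 in CBA/J. The RIIIS/J vehicle animals had 6.32, 8.44, 8.76 and 9.51 (SD 1.37) and its isoniazid animals 7.90, 8.27 and 8.42. In AKR/J, the second low strain at 9.01, the vehicle animals had 8.48, 8.82, 9.03 and 9.70 and the isoniazid animals 9.01, 9.08, 9.11 and 9.15. The RIIIS/J vehicle animal at 6.32 also had the highest Saa1 (14.21) and Saa3 (13.21) of the 4. AKR/J was thus low for both Hc and C9. Over strains C9 fell by 0.32 with isoniazid (SE 0.05, adjusted p = 2.07e-05, lower in 26), with -0.94 in BALB/cJ as the lowest value.

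C6, which joins C5b first, was high in 3 strains. Its vehicle means were 8.80 in C57BR/cdJ, 8.01 in PWK/PhJ and 7.86 in KK/HIJ, against a median strain at 5.87 and a lowest strain at 5.23 (129S1/SvImJ). The 4 C57BR/cdJ vehicle animals had 8.61, 8.70, 8.92 and 8.96 and the isoniazid animals 8.2, 8.39, 8.48 and 8.77. C57BR/cdJ exceeded the mean of the other 30 strains 6.82-fold (adjusted p = 2.79e-33). C6 did not pass for isoniazid over strains (-0.06, adjusted p = 0.555). C8 has 3 chains, encoded by C8a, C8b and C8g. C8b ranged from 7.91 in BALB/cJ to 10.29 in LG/J, C8a from 10.28 in AKR/J to 11.96 in RIIIS/J, and C8g from 11.03 in PWK/PhJ to 12.12 in BTBR T+ tf/J. None of the 3 chains passed for isoniazid, with mean changes of 0.02 for C8a, -0.02 for C8b and -0.06 for C8g and adjusted p from 0.343 to 0.832.

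The contact factors start the intrinsic route of clotting and release bradykinin. Klkb1, plasma prekallikrein, was low in C58/J at 9.02, with PWK/PhJ at 9.76 and C57BR/cdJ at 10.03 next, against a median strain at 11.31. In C58/J the vehicle animals had 8.22, 8.54, 9.65 and 9.65 and the isoniazid animals 8.39, 8.47, 9.21 and 9.98, so both groups held a lower and a higher pair. In PWK/PhJ the vehicle animals had 9.34, 9.73, 9.81 and 10.17 and the isoniazid animals 8.49, 8.54, 9.05 and 9.66. Over strains Klkb1 fell by 0.14 (SE 0.04, adjusted p = 0.0232), and the adjusted p was 0.0867 without replicate 1. Kng1, the kininogen from which bradykinin is cut, fell by 0.10 (SE 0.02, adjusted p = 5.12e-04), and within each of the 10 scan days its change was negative. On 1 of these days only 1 strain, RIIIS/J, had both treatments.

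F12, factor XII, fell into 2 sets of strains, as Hc did, and the sets were formed after the values were seen. CE/J, BALB/cJ, C3H/HeJ, A/J and CBA/J had vehicle means from 9.79 to 10.12, and the other 26 strains began at 10.76 (LG/J). The 20 vehicle animals of the 5 strains lay between 9.61 and 10.19, and the 104 others between 10.39 and 11.42. Under isoniazid the 18 animals reached at most 10.18 and the 93 others at least 10.41. No animal crossed, and 3 of the 5 strains were steatosis strains. F12 did not pass for isoniazid (mean change -0.05, adjusted p = 0.236).

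**Figure D4:**
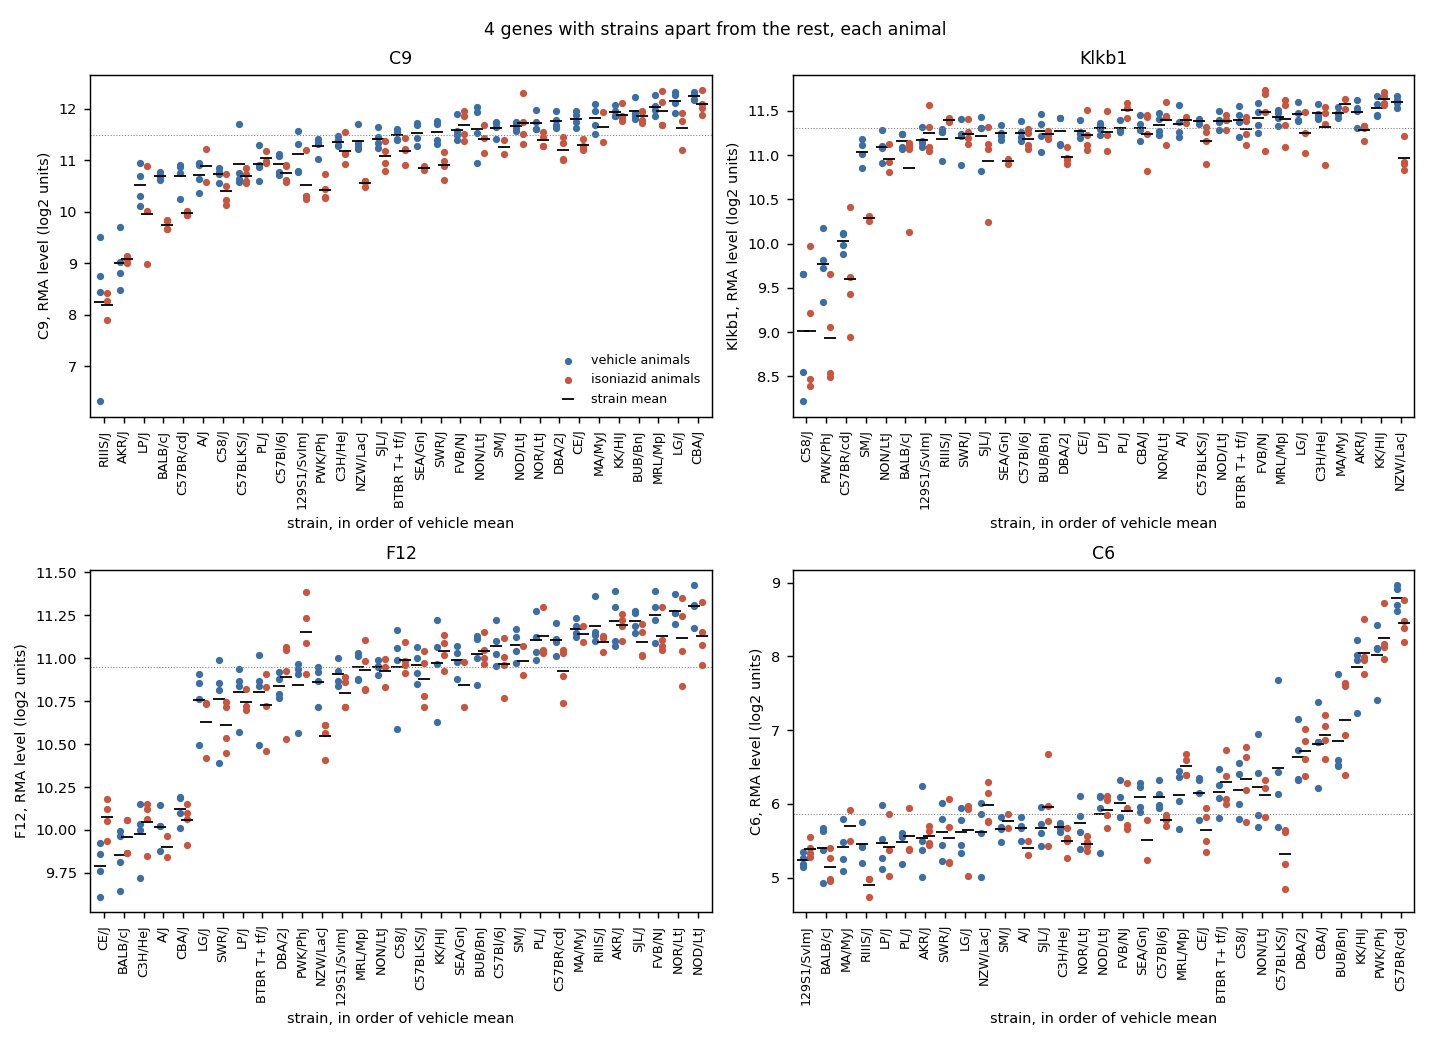
Level (RMA log2 units, vertical axes) of C9, Klkb1, F12 and C6 in each vehicle (blue) and isoniazid (red) animal, strains ordered by vehicle mean in each panel, black bars for strain means and dotted lines for the median strain. C9 is lowest in RIIIS/J and AKR/J, Klkb1 in C58/J, PWK/PhJ and C57BR/cdJ, F12 in a set of 5 strains, and C6 is highest in C57BR/cdJ, PWK/PhJ and KK/HIJ.

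Of the clotting factors, F9, the factor missing in haemophilia B, was lowest in PL/J at 8.41 and highest in PWK/PhJ at 11.05, with the median strain at 10.29. PL/J lay at -1.88 log2 units from the median strain, just outside the rule for low strains. Its vehicle animals had 8.14, 8.43, 8.53 and 8.56 and its isoniazid animals 8.56, 8.59 and 8.65. F9 fell over strains by 0.14 (SE 0.04, adjusted p = 0.0112). F2, prothrombin, varied little, from 13.36 in SM/J to 13.63 in BALB/cJ, and fell by 0.08 (SE 0.02, adjusted p = 2.69e-04, lower in 28 strains). F5, F7, F8, F10, F11 and F13b did not pass over strains, with mean changes from -0.11 for F13b to 0.06 for F10. The 3 probe sets of F10 had mean changes from 0.06 to 0.15, the smallest on the brightest one used here. In 3 of 45 alternative settings F10 was called higher. F7, the protease that tissue factor activates, was lowest in C58/J (8.81) and highest in SEA/GnJ (10.26). F11 was lowest in C57Bl/6J at 6.47, and F8, which endothelial cells make for the most part, lay between 5.0 in PL/J and 6.17 in BTBR T+ tf/J.

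Fibrinogen is built from 3 chains whose genes Fga, Fgb and Fgg lie side by side. Fga had vehicle strain means from 12.32 in CE/J over a median of 13.05 to 13.37 in MRL/MpJ. The CE/J vehicle animals had 12.14, 12.19, 12.42 and 12.52 and the isoniazid animals 11.77, 11.84, 12.14 and 12.21. Fgb ranged from 13.07 in PWK/PhJ over 13.59 to 13.87 in RIIIS/J, and Fgg from 13.42 in BALB/cJ over 13.60 to 13.82 in C57BR/cdJ. Fga fell with isoniazid by 0.10 (SE 0.03, adjusted p = 0.0148, lower in 24 strains), and its adjusted p was 0.135 without replicate 4. Fgb (-0.06, adjusted p = 0.0841) and Fgg (-0.06, adjusted p = 0.0533) did not pass.

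The chains moved together over strains. In vehicle livers Fgb and Fgg had r = 0.72 and rho = 0.82 (permutation p = 2e-05 for r, adjusted p = 0.000147), Fga and Fgg r = 0.47 and rho = 0.64 (adjusted p = 0.0179), and Fga and Fgb r = 0.37 and rho = 0.52 (adjusted p = 0.0727). The changes with isoniazid were correlated as well, at r = 0.72 for Fga and Fgg, 0.63 for Fgb and Fgg and 0.50 for Fga and Fgb, with rho of 0.80, 0.67 and 0.52 (adjusted p for r between 0.000147 and 0.00926). Leaving out the 2 strains farthest from the median gave r = 0.82, 0.60 and 0.45 for the levels and 0.66, 0.50 and 0.35 for the changes, in the orders above, and the last no longer passed (adjusted p = 0.0924). The level of Fga and Fgb, in contrast, passed when CE/J and SM/J were left out (adjusted p = 0.0277). All correlations were taken over 31 strain means of shared arrays, with 100000 permutations and p-values adjusted over 22 relations, of which 12 passed, and 1e-05 is the smallest p these permutations can give.

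Because the 3 chains moved together, the 250 bases before each gene's start are shown, from RefSeq on build GRCm38.p6 for the reference genome. Capitals mark matches, on either strand, to GTTAATNAT (a short form of the site of HNF1, a factor of hepatocytes), TTGCNNAA (C/EBP, which includes factors of the acute phase) and TTCNNNGAA (STAT3, which acts after interleukin 6). Fga lies at chr3:83025903-83026152 on the plus strand, Fgb at chr3:83049864-83050113 on the minus strand and Fgg at chr3:83007474-83007723 on the plus strand.
Fga: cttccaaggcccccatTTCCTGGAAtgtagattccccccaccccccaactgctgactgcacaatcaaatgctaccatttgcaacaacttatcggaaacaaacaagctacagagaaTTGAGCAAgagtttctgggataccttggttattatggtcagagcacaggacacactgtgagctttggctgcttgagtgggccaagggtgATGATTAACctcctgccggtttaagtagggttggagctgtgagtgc
Fgb: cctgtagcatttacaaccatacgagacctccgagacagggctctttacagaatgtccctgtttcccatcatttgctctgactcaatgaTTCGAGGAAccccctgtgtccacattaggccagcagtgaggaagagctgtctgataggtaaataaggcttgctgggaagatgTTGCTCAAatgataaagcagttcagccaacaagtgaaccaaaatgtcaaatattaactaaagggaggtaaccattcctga
Fgg: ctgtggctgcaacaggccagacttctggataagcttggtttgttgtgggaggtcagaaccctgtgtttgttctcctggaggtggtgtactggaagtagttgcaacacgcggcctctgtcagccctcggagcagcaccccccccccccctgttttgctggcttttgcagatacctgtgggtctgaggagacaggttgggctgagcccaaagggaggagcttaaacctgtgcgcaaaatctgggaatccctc
The Fga sequence held 1 match to each of the 3 motifs, with first bases at -46 (HNF1), -135 (C/EBP) and -234 (STAT3) from the start. Fgb held a C/EBP match at -80 and a STAT3 match at -162, and Fgg held none of the letters searched. Over windows from 250 bases before to 50 after the start, 32 windows of 31 listed genes were found, among them C3 and Cpb2, for which promoters but no expression values were used and which each hold the C/EBP letters. The HNF1 letters were in 12.5% of them, those of C4bp, F13b, Fga and Hc, and in 0.801% of all 32851 promoters. The C/EBP letters were in 28.1% against 10.8%, the STAT3 letters in 21.9% against 8.30%, and CAAAGTCCA, a form of the HNF4 site, in 0% against 0.475%. A match of letters is a description and not a site.

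**Figure D5:**
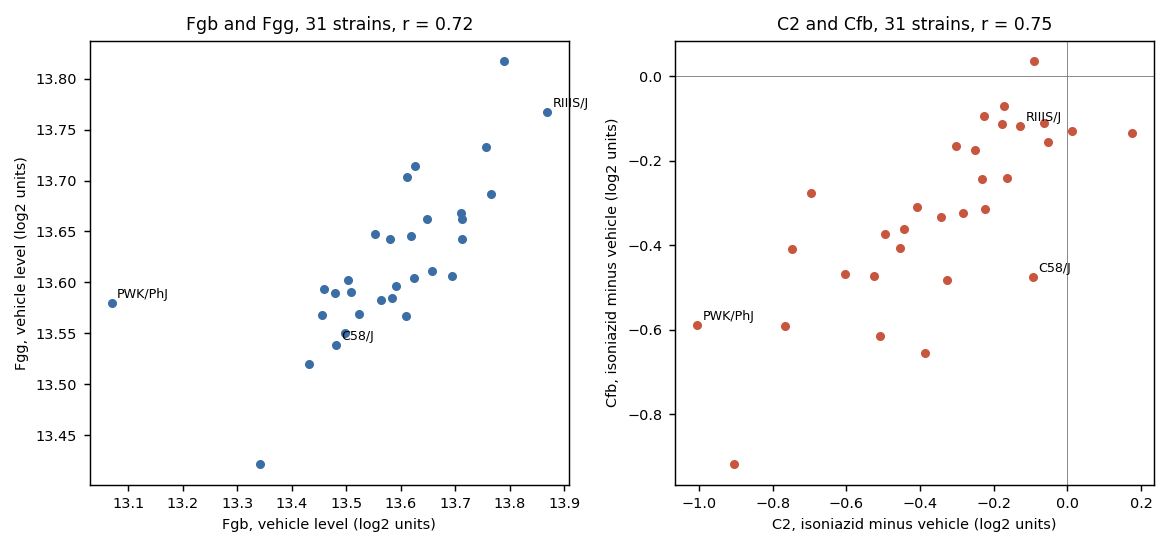
Left, vehicle level of Fgb (horizontal) against Fgg (vertical), both in log2 units, and right, change with isoniazid of C2 (horizontal) against Cfb (vertical), each point 1 of 31 strains. Fgb and Fgg had r = 0.72 with PWK/PhJ to the left of the rest, and C2 and Cfb had r = 0.75 with nearly all strains below 0 on both axes.

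C2 and Cfb, which are neighbours in the genome, changed together with isoniazid (r = 0.75, rho = 0.75, adjusted p = 0.000147, and r = 0.67 without PWK/PhJ and NZW/LacJ), and their vehicle levels had r = 0.36 (adjusted p = 0.0727). C8a and C8b, also neighbours, had r = 0.67 for the change (rho = 0.69, adjusted p = 0.00022, and r = 0.71 without 2 strains) and 0.34 for the vehicle level (adjusted p = 0.0845). C8a and C8g had r = 0.40 for the change (rho = 0.32, adjusted p = 0.0494 for r). Without PWK/PhJ it was 0.24 and did not pass (adjusted p = 0.259). F7 and F10, neighbours that both encode vitamin K dependent factors, had r = 0.60 for the change and 0.56 for the level (rho of 0.60 and 0.57, adjusted p = 0.0011 and 0.0031, and r = 0.46 and 0.47 without 2 strains). F11 and Klkb1 had r = -0.20 for the change (adjusted p = 0.323). Their level had r = 0.32 (adjusted p = 0.0993), 0.51 without PWK/PhJ (adjusted p = 0.0116, which passes) and 0.04 without C57Bl/6J and C58/J. Serpinc1 and F2, which lie on different chromosomes, had r = 0.58 for the change and 0.69 for the level (rho of 0.60 and 0.52, adjusted p = 0.00198 and 0.00022, and r = 0.54 and 0.53 without 2 strains). Mbl1 and Mbl2 had r = 0.05 for the change (adjusted p = 0.823) and C6 and C9 r = 0.03 (adjusted p = 0.869).

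The anticoagulants restrain thrombin. Serpinc1, antithrombin, fell by 0.05 (SE 0.02, adjusted p = 0.0398), Serpind1, heparin cofactor II, by 0.09 (SE 0.03, adjusted p = 0.0130), and Proc, protein C, by 0.13 (SE 0.03, adjusted p = 6.69e-04). The call of Serpinc1 was lost in 22 of 45 alternative settings. Pros1, protein S, did not pass (-0.06, adjusted p = 0.404) and was high in C57BR/cdJ (9.01) and C58/J (8.87) against a median strain at 7.80. Of the genes of fibrinolysis, Plg, plasminogen, fell by 0.08 (SE 0.02, adjusted p = 0.00126), and Serpinf2, which blocks plasmin, did not pass (0.02, adjusted p = 0.812). Vtn, vitronectin, an adhesion protein that also blocks the membrane pore, fell by 0.11 (SE 0.02, adjusted p = 8.31e-05, lower in 29 strains).

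Some strains stood apart in many of the 37 genes at once. In vehicle livers of RIIIS/J 19 members were higher than the mean of the other 30 strains and 2, C9 and C6, were lower, while 4.81% of all genes were called higher there. C2 (0.74), Masp1 (0.75), Mbl1 (0.73), C8a (0.80) and C8b (0.87) were the most raised apart from Hc, whose mean over 30 strains includes the 11 low ones. The result for Masp1 depended on the probe set. On another one, with a mean level of 7.62, RIIIS/J was the lowest strain, at -0.60 log2 units from the median strain. RIIIS/J had the highest mean of all strains for 13 of the 37 genes, and such a count over all genes was not made. In the same animals 14 of 19 acute phase genes were higher than in the other strains, by a median of 0.62 over the list. Markers of other cell types were lower there, 7 of 8 endothelial (median of the list -0.78, with Lyve1 at -1.11 and Kdr at -0.88), 3 of 6 stellate (Reln at -1.31), 1 of 9 macrophage and 1 of 4 bile duct markers, and 0 of 8 hepatocyte markers were called. The 4 vehicle animals were not alike. Saa1 was 11.27, 12.07, 13.76 and 14.21 in them, against a median strain at 9.65, and the animal at 14.21 had C4bp at 12.74 and C9 at 6.32. Without this animal 10 members were higher in RIIIS/J in place of 19, and 530 of all genes in place of 873. C4bp then no longer differed from the other strains by the test (adjusted p = 0.813), and C9 was still lower by -2.44 (adjusted p = 3.34e-31). The part of the acute phase genes and of these markers in the levels was not tested.

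C58/J and PWK/PhJ, a strain derived from wild mice, stood apart downwards. In C58/J 20 members were lower than in the other 30 strains, where 12.4% of all genes were, and in PWK/PhJ 22, where 16.4% were. C58/J had the lowest mean for 9 genes and PWK/PhJ for 8. In C58/J, beside Klkb1 at -2.21, the lowest were Serpind1 (-1.22), Serpinf2 (-1.13), C4bp (-1.10), F7 and Mbl2 (both -0.95). In PWK/PhJ, beside Klkb1 at -1.44, they were Cfb (-1.05), Serpind1 (-1.03), C8b (-0.92) and C8g (-0.85), while C6 (1.96) and F9 (0.82) were higher. In each strain 1 vehicle array had the narrow spread, and without it 14 members were lower in C58/J and 19 in PWK/PhJ. Over all 18146 genes the number lower went from 2252 to 1458 in C58/J and from 2968 to 2214 in PWK/PhJ. Both arrays shared a scan day with the array of the RIIIS/J vehicle animal left out above. The part of the scan day in the counts of these strains was not tested. In PWK/PhJ 8 of 9 macrophage markers were lower as well, by a median of -0.91, of 8 hepatocyte markers 3 were lower and 2 higher, of 8 endothelial markers 2 were lower and 5 higher, and 4 of 6 stellate and 4 of 4 bile duct markers were lower. The part of these markers in the levels was not tested.

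The effect of isoniazid differed between strains in 19 of the 37 genes by limma's F test of the interaction, against 17.0% of all genes. F13b (F = 5.44, adjusted p = 5.97e-11), C4bp (4.15, adjusted p = 1.11e-07), F7 (3.98, adjusted p = 3.01e-07), C2 (3.87, adjusted p = 5.68e-07) and Serping1 (3.61, adjusted p = 2.66e-06) had the largest F. The count was 10 without replicate 1 and 11 without replicate 4. Within single strains, 62 of 1147 pairs of a gene and a strain were called lower (5.41%) and 11 higher (0.959%). Over all genes and strains 0.723% were lower and 1.27% higher. In 18 strains no member was called, and PWK/PhJ and NZW/LacJ together held 38 of the 73 calls.

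In PWK/PhJ 16 members fell and 4 rose, where 4.73% of all genes fell and 10.4% rose. F13b, the carrier chain of factor XIII, which crosslinks fibrin, had 10.35, 10.38, 10.47 and 10.49 in the vehicle animals and 7.88, 8.48, 9.46 and 9.95 in the isoniazid animals. The change of F13b was -1.48 (SE 0.12, adjusted p = 1.93e-21) with no overlap, and the next strain, NZW/LacJ, had -0.43. C4bp went the other way in PWK/PhJ, from 10.06, 10.06, 10.40 and 10.52 to 9.98, 11.72, 11.80 and 11.96, and the animal at 9.98 was the one with F13b at 9.95. C2 fell from 8.31, 8.35, 8.52 and 8.64 to 7.27, 7.34, 7.58 and 7.60, and Serping1 from 12.11, 12.18, 12.20 and 12.26 to 11.06, 11.52, 11.60 and 11.77. Mbl1 (-0.78), C8g (-0.80), F9 (-0.75), Klkb1 (-0.83) and C9 (-0.84) fell too, and F5 (0.58) and F11 (0.79) rose beside C4bp. The fourth gene called higher, F12 (0.31), lost its call without the narrow vehicle array (0.22, adjusted p = 0.231), which left 16 members lower and 3 higher. Of 19 acute phase genes 5 fell in PWK/PhJ, among them Saa4 (-2.18) and Orm1 (-1.72), and 2 rose, Apcs and Jak1 (0.47). Of 9 macrophage markers 2 fell (Cd5l and Clec4f), of 8 hepatocyte markers 2 fell, Ttr by 0.44, and of 6 stellate markers 1 rose, and the part of these genes in the changes was not tested.

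In NZW/LacJ, a steatosis strain, 16 members fell and 2 rose, where 3.33% of all genes fell and 9.32% rose. F7 fell from vehicle animals at 9.98, 10.09, 10.20 and 10.28 to isoniazid animals at 9.27, 9.32, 9.34 and 9.39, a change of -0.81, and C2 from 8.5, 8.58, 8.74 and 9.01 to 7.52, 7.60, 8.00 and 8.10. The 2 genes that rose were C4bp (0.85) and Fgb (0.28). In NZW/LacJ 4 of 19 acute phase genes rose, Il6st (0.76), Stat3 (0.75), Apcs (0.95) and Lcn2 (2.16), and 0 fell, 1 of 8 endothelial markers fell (Stab2, -0.83), 2 of 8 hepatocyte markers rose and 1 fell, and 0 of 9 macrophage markers were called. Their part in the changes was not tested. In C58/J, F7 had vehicle animals at 8.32, 8.94, 8.96 and 8.99 and isoniazid animals at 9.02, 9.16, 9.21 and 9.27, a change of 0.36 that did not pass within the strain (adjusted p = 0.10) and was 0.20 without the narrow array, that of the animal at 8.32 (adjusted p = 0.675). C4bp rose within 4 strains, PWK/PhJ, NZW/LacJ, DBA/2J (0.61) and BTBR T+ tf/J (0.61), and fell in none by the test, with C57BR/cdJ at -0.44 as its lowest value. C2 fell within 6 strains, and Mbl2, Cfb and Serping1 within 5 each.

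The steatosis code of the strains did not separate these genes by the test. The change with isoniazid differed between the 13 steatosis strains and the 18 others in 0 of 37 members and in 0% of all genes by limma with adjustment. At an unadjusted p under 0.05, 1 member was called, against 2.71% of all genes. That member was Pros1, whose change averaged -0.17 ± 0.24 (SD over 13 strains) where steatosis was coded and 0.02 ± 0.23 (SD over 18 strains) elsewhere (adjusted p = 1.00). The 95% intervals of the differences of the 37 genes lay within -0.38 and 0.37 log2 units. Vehicle levels also differed by status in 0 members and in 0% of all genes after adjustment, and without it in 2 members, C9 (0.61 higher in steatosis strains, unadjusted p = 0.0379) and Serping1 (0.11 higher, unadjusted p = 0.0319), against 4.06% of all genes. The low C9 strains RIIIS/J and AKR/J are both in the group without steatosis.

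Other genes of the same pathways moved in similar small steps. Of 19 further complement genes 9 fell and 1 rose, at a median change of -0.09, where 9.85% of all genes fell and 10.2% rose. C1ra, a protease of the C1 complex, fell by 0.18 (lower in 28 strains), Clu, clusterin, which blocks the membrane pore, by 0.13, and Fcna, ficolin A, a lectin that starts the lectin route, by 0.19, while Cr1l, a regulator on cell surfaces, rose by 0.14. C1qa, C1qb and C1qc, the chains of C1q, which are named here after their values were seen, fell by 0.24, 0.22 and 0.22. C1q and Vsig4, a complement receptor that also stands among the macrophage markers, are made by macrophages in liver, and the macrophage values given above apply to them. Of 21 further coagulation genes 4 fell and 1 rose, at a median change of -0.01, where 20.0% of all genes were called in either direction. Lman1, the receptor that carries factors V and VIII out of the endoplasmic reticulum, rose by 0.26 (SE 0.04, adjusted p = 3.22e-06, higher in 30 strains), while F5 and F8 themselves did not pass. Pzp, a broad protease inhibitor, fell by 0.11, and Hrg, a histidine-rich plasma protein, by 0.14. Of 4 genes of the vitamin K cycle 1 rose, Vkorc1l1 by 0.27 (SE 0.04, higher in 26 strains).

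Of 9 liver transcription factors 7 fell and 1 rose, where 9.85% of all genes fell and 10.2% rose. Hnf4a, a nuclear receptor that drives many clotting factor genes, fell by 0.20 (SE 0.03, adjusted p = 1.29e-06) and was lower in all 31 strains, and Foxa3 fell by 0.23 (lower in 26). Of 19 acute phase genes 6 fell and 0 rose. Saa3 fell by 0.61, Socs3, the inhibitor of interleukin 6 signalling, by 0.49, and Il1r1, the receptor of interleukin 1, by 0.38 (lower in 29 strains). Itih4, an acute phase plasma protein, fell by 0.22. Of the hepatocyte markers 1 of 8, Cps1, rose by 0.17 and 0 fell. Of markers of other liver cells, 2 of 8 endothelial, 1 of 6 stellate, 2 of 3 B cell, 1 of 2 neutrophil, 1 of 4 bile duct and 0 of 4 T and NK cell markers fell and 0 rose.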

How the data were processed

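Liver RNA was measured on Affymetrix mouse arrays, 1 per animal. The deposited values are log2 expression levels of probe sets. Per the submitters' processing notes, RMA and Affymetrix Power Tools were used, and their versions are not stated there. RMA makes the distributions of arrays alike, so a change of all genes together cannot be seen, and it compresses low signals. Precision is limited by the number of arrays.

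Of 44721 probe sets 34717 had 1 gene symbol, which gave 18146 genes. The strain was the replicate for the effect of isoniazid over strains and for steatosis status. Strain differences, interactions and effects within strains used a fit of 62 groups with animals as replicates, in limma 3.58.1 (lmFit, eBayes, R 4.3.3), with Benjamini-Hochberg adjustment over all genes and two-sided tests at 0.05. Tables were handled with pandas 2.3.3 and numpy 2.4.6 (Python 3.11.15) and drawn with matplotlib 3.10.9. No dim genes were left out. The p-values of tests with the strain as replicate, and those of the permutations, measure the spread between these strains. Those of the fit of 62 groups measure only the spread between these animals, and the labels do not say whether animals were littermates. No pair of arrays was identical (highest r = 0.995). Scripts were tested on simulated data.

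The members and lists were chosen with earlier results of these data known. Values by strain were given for Hc, the 3 largest and 3 smallest mean changes, the 5 largest F values for strain and for interaction, the fibrinogen chains and every pair at least 2 log2 units under the median strain, and from each pathway list at most 4 genes with the largest moderated t. The F12 sets and other strains and genes shown were chosen after their values were seen. Lists covered complement, coagulation, the vitamin K cycle, liver transcription factors, the acute phase and markers of liver cell types. Alternatives were animals as replicates, scan day as a term, median centring, the mean of all probe sets, a filter on dim genes, eBayes with trend and robust, weights by animals, left-out arrays, replicates and strains, the 22 strains without deaths, and the replicate number as a block.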

Additional observations from a re-analysis of the deposited data

Results flagged for a closer look

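The effect of isoniazid differed between the 31 strains, by limma's F test of the interaction with Benjamini-Hochberg adjustment over all genes, for 19 of the 37 genes. The F values were 5.44 for F13b, 4.15 for C4bp, 3.98 for F7, 3.87 for C2, 3.61 for Serping1, 3.58 for F9, 3.48 for F5, 3.22 for Proc and 3.00 for Mbl2. They were 2.71 for C8g, 2.51 for Serpinf2, 2.47 for Cfb, 2.29 for Fgb, 2.19 for C8b, 2.10 for F11, 1.96 for Pros1, 1.95 for Mbl1, 1.90 for Klkb1 and 1.84 for Masp1.

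Among 107 groups of 4 animals whose values were checked for 1 animal far from the rest, 6 held such an animal. For groups not chosen by their values the rate is about 1 in 20, or 5.3 groups. These groups were chosen for extreme means or changes, which 1 stray animal can produce, so that rate need not apply. C4bp was 9.98 in 1 isoniazid animal of PWK/PhJ, with the nearest at 11.72. Mbl2 was 9.54 in 1 vehicle animal of C58/J, with the nearest at 10.65, and F7 was 8.32 in the same animal, with the nearest at 8.94. F12 was 10.56 in 1 vehicle animal of PWK/PhJ, with the nearest at 10.91. The C58/J animal and this PWK/PhJ animal both had an array of narrow spread. These arrays and that of the RIIIS/J animal named below shared a scan day. Without the C58/J array the change of Mbl2 with isoniazid there was -0.63 (limma, adjusted p = 0.00293) in place of -0.34 (adjusted p = 0.185), and that of F7 was 0.20 in place of 0.36. Without the PWK/PhJ array the change of F12 there was 0.22 (adjusted p = 0.231) in place of 0.31 (adjusted p = 0.021). F13b was 10.52 in 1 isoniazid animal of C57Bl/6J, with the nearest at 10.63. Klkb1 was 10.93 in the RIIIS/J vehicle animal with the highest Saa1, with the nearest at 11.26.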

How the results depend on the processing

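Of the 20 genes called over strains, 16 kept their call in all 45 alternative settings and none of the 20 changed sign, with Cfp, Fga, Klkb1 and Serpinc1 as the exceptions. Of the 17 others, 10 were never called. The count over strains was 18 to 26 across settings, 18 to 19 without 1 replicate, 19 to 21 without 1 strain, and 0 when 1.5-fold was also asked for. Vehicle levels differed by status in 21 members with animals as replicates, which treats animals of 1 strain as independent. The share of all genes in that setting is not given here, so the count is no result about the members. Interaction calls were 10 to 19 without 1 replicate. The low pairs numbered 30 at 1 log2 unit and 2 at 3 log2 units. In alternatives added after seeing the data, RIIIS/J had 10 members, and 530 of all genes, higher without its vehicle animal 2. Uncalled values near 0 changed sign. C8a was -0.00121 with scan day as a term and -0.0422 to 0.0501 with 1 replicate or strain left out, F8 0.00737 without narrow arrays, 0.00904 with the replicate block and -0.0212 to 0.0207, C8b 0.0259 in 22 strains and -0.0482 to 0.00969, and Serpinf2 -0.00555 to 0.0297. For r, the change of C6 and C9 gave -0.0034 without 2 strains, that of F11 and Klkb1 0.0229 and, without PWK/PhJ, 0.0791, and the levels of C8a and C8g 0.180 without PWK/PhJ. The level of F11 and Klkb1 passed without PWK/PhJ (0.51). The causes were not tested. Replicate numbers did not pair the animals (r over 0.1 in 23 of 111 pairs, median -0.02). With them as a replicate block, 19 members were called over strains, 0 by status and 13 for the interaction, all of them among the calls without it. Signal over background was not measured here, so what dimness limits is unknown.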
